A study of Mus musculus with 2 samples.

Results

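Collagens, laminins and the proteases that cut them, with the inhibitors of those proteases, were examined in the kidney of mice lacking *Cnnm2*, a gene for a membrane protein of the distal nephron that is needed for renal magnesium handling. Members were every gene name on the array of the form Col, Lama, Lamb, Lamc, Mmp or Timp followed by its number, which gave 77 of 31821 gene names: 40 collagens, 10 laminin chains, 23 matrix metalloproteinases (MMPs) and 4 tissue inhibitors of metalloproteinases (TIMPs). The study compared whole kidneys of Cnnm2fl/fl;Six2-Cre mice (knockout) and Cnnm2+/+;Six2-Cre mice (control), all at an age of 2 months. Both groups carry Six2-Cre, a Cre recombinase active in the embryonic kidney, so the comparison holds the Cre transgene constant and differs in the floxed *Cnnm2* alleles. Total RNA was extracted, and labelled complementary RNA of the genotypes was hybridized together in a dye swap of 2 arrays read in 2 colours. Array 1 had the knockout labelled with Cy5 and the control with Cy3, and array 2 the reverse. The sources used here give no number of mice and do not say if the RNA was the same on both arrays, so the arrays were counted as 1 replicate per genotype. They allow no test between genotypes, and counts by the t-test of the study's methods, which takes the arrays as replicates, are given as a description only. Each SD below is that of the 2 arrays and may cover labelling and hybridization only.

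Collagens are triple-helical proteins that build the fibrils of the interstitium and, as collagen IV, the network of basement membranes. Laminins are trimers of an alpha, a beta and a gamma chain that form the other network of basement membranes and anchor epithelial cells to it. MMPs are zinc proteases that cleave these proteins, and TIMPs inhibit them. In the kidney, the glomerular filter rests on a basement membrane of the alpha3, alpha4 and alpha5 chains of collagen IV with laminin of *Lama5*, *Lamb2* and *Lamc1*, and accumulation of fibrillar collagen marks renal fibrosis.

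Of the 77 members, 48 had a probe well above background on both arrays in at least 1 genotype and are called measured here, against 19708 of all 31821 gene names. All 10 laminin chains and all 4 TIMPs were measured, with 27 of 40 collagens and 7 of 23 MMPs. The remaining 29 had no usable ratio, 23 of them not well above background in any channel. *Cnnm2* itself had log2 ratios of knockout over control of -2.88 and -2.46, with processed signals of 626 against 4620 on array 1 and 591 against 3247 on array 2. All 10 kidney tubule marker genes were measured, with a median log2 ratio of -0.09. On both arrays 0 were higher and 3 lower, beside 12.1% and 15.6% of all genes measured. Only 1 was past both limits on fold used below (*Calb1*, of the distal tubule, at -1.26 and -0.77). Of all genes measured, 0.284% and 0.568% were lower by these limits. Of 43020 gene spots per array, between 62.6% and 68.0% were well above background in a channel, and 0 were saturated.

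A single laminin chain stood apart from the other members. *Lamb3*, the beta chain of laminin-332, which joins epithelial cells to their basement membrane through hemidesmosomes, gave processed signals of 280 in the knockout and 136 in the control on array 1, and of 217 and 102 on array 2. The knockout was higher on each array, by a log2 ratio of 1.04 and 1.09, and the ratio turned with the genotype and not with the dye. The mean was 1.06 ± 0.03 (SD of the 2 arrays), a fold of 2.09, and ranked 55th highest of 19708 genes measured. *Lamb3* was the only measured member whose mean ratio reached 2-fold with the same sign on each array (1 of 48 higher, 0 lower, against 0.315% of all genes measured higher and 0.284% lower). It was also the only measured member at least 1.5-fold higher on each array, with 0 measured members lower by that limit (0.502% and 0.568% of all genes). By the methods' t-test with their limit on fold the count was 1 of 48, again *Lamb3* (0.183% of all genes), but that p may cover labelling and hybridization only and adds no support. *Lamb3* is in the study's own list, which was chosen on these arrays, so none of these counts is independent evidence of its direction.

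The value of *Lamb3* rests on 1 probe with 1 spot per array, whose target is NM_008484 at chr1:195167537-195167596 (mm9, plus strand). Its first 30 of 60 bases, 5′ to 3′, are shown because no other probe of the gene was available to set beside it. The exon or UTR it lies in was not analysed here.
Lamb3: tgtatgaacacaaaacccaataaaaatctt

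*Lama3*, the alpha chain of laminin-332, did not share this ratio. Its signals were 502 in the knockout and 396 in the control on array 1 and 471 and 456 on array 2. The log2 ratios of 0.34 and 0.05 gave a mean of 0.19 ± 0.21, smaller than the SD of the arrays, and a second probe gave a mean of 0.26 with opposite signs on the arrays. Of the hemidesmosome genes listed as partners (*Itga6*, *Itgb4*, *Cd151*, *Dst* and *Plec1*), 5 of 5 were measured, with a median of -0.08 and no gene past either limit on fold. On both arrays 0 were higher and 2 lower, beside 12.1% and 15.6% of all genes measured. The member *Col17a1*, the collagen of hemidesmosomes, was not measured.

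**Figure D1:**
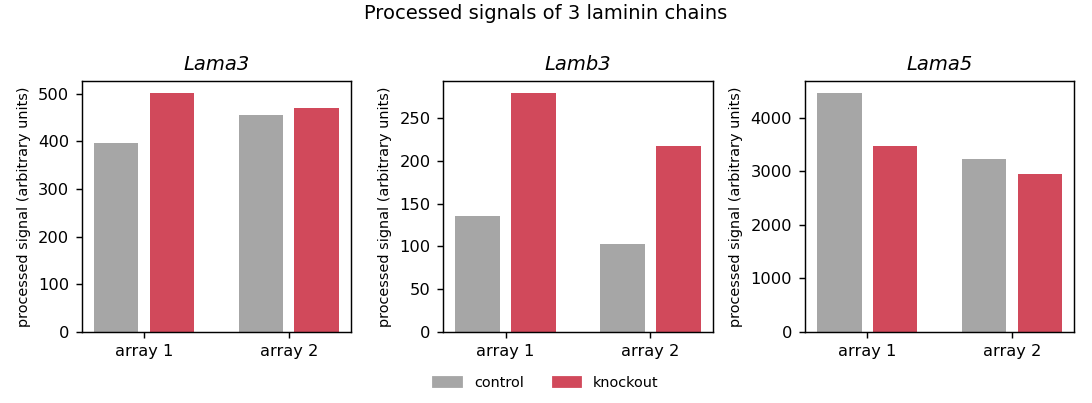
Processed signal (arbitrary units, linear axis from 0) of 3 laminin chains in the control (grey) and knockout (red) channel of each array, 1 probe per gene; heights are not comparable between genes. The knockout bar is about double the control bar for *Lamb3* on both arrays (fold 2.09), while *Lama3* is nearly level on array 2 and *Lama5* is lower in the knockout on both.

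Urothelial genes were also higher in the knockout. All 7 markers of urothelium, the lining of the renal pelvis, were measured and were higher on both arrays, with mean log2 ratios between 0.36 (*Upk2*) and 0.87 (*Upk1b*) and a median of 0.62 (12.1% of all genes were higher on both arrays). None reached 2-fold in the mean, and 2 of 7 were at least 1.5-fold higher on each array (0.502% of all genes). With normexp background correction (limma), with its offset of 50 added to all signals, the median of these markers was 0.23, with 7 of 7 still higher on both arrays. Their summed processed signal was 2587 in the knockout against 1849 in the control on array 1 and 2231 against 1489 on array 2. None of the 7 was at 0 in the control. The part of this difference in the *Lamb3* ratio was not tested. In RNA of whole kidneys, fewer or more cells of a type cannot be told apart from less or more RNA per cell.

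**Figure D2:**
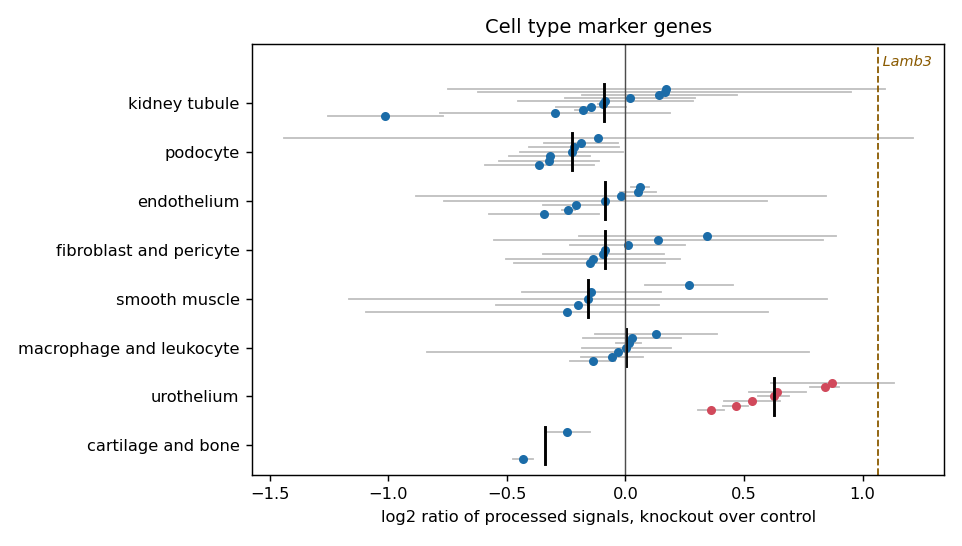
Mean log2 ratio of processed signals, knockout over control, for each measured marker gene of 8 cell type lists (points), with the values of the 2 arrays at the ends of each grey line and the median of the list as a black bar. The 7 urothelial genes (red) lie between 0.36 and 0.87, to the left of *Lamb3* (dashed line, 1.06). Podocyte genes have a median of -0.23, and the 2 measured cartilage and bone genes, both lower on both arrays (15.6% of all genes were), one of -0.34.

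Other laminin chains had small ratios of mixed sign. *Lama5*, the alpha chain of the mature glomerular basement membrane, was lower in the knockout on both arrays (-0.36 and -0.13, mean -0.25 ± 0.17). Its partners *Lamb2* (-0.51 and 0.25) and *Lamc1* (-0.27 and 0.15) changed sign with the dyes. So did *Lama1* (-0.51 and 0.31), *Lama2* (0.08 and -0.24), *Lama4* (0.18 and -0.49) and *Lamc3* (0.09 and -0.02). Over the 10 laminin chains, 2 were higher and 2 lower on both arrays, beside 12.1% and 15.6% of all genes measured. The median of their mean ratios was -0.09, against -0.0081 over all genes measured. The array names the gene of the widespread beta1 chain *Lamb1-1*, which the rule for members left out, and its mean ratio was -0.03 (0.10 and -0.17).

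Collagen IV chains showed no common direction. *Col4a1* and *Col4a2*, the chains of most basement membranes, had mean ratios of 0.03 ± 0.05 and -0.06 ± 0.57. *Col4a1* was spotted 10 times and lay at -0.01 and 0.06. For the chains of the glomerular basement membrane, *Col4a3* was at 0.44 and -0.28 and *Col4a5* at 0.56 and -0.25, both with opposite signs on the arrays. *Col4a4* was lower on both arrays (-0.37 and -0.08, mean -0.23 ± 0.20). Podocytes make these chains and laminin alpha5, and 6 of 7 podocyte markers were lower in the knockout on both arrays (15.6% of all genes were), with means between -0.36 (*Wt1*) and -0.11 (*Podxl*) and a median of -0.23. With centred background-subtracted signals, 3 of the 7 were lower on both arrays, and with normexp 4. Their summed signal was 10966 in the knockout against 14770 in the control on array 1 and 9109 against 10145 on array 2, and its part in the ratios of *Col4a4* and *Lama5* was not tested.

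*Col4a6*, a chain of smooth muscle and Bowman's capsule basement membranes, had the highest mean ratio of the measured collagens. Its signals were 168 in the knockout and 103 in the control on array 1 and 128 and 106.6 on array 2, a log2 ratio of 0.71 and 0.26 and a mean of 0.48 ± 0.32. A second probe of the gene gave -0.23 and 0.09, a mean of -0.07, so the probes lay on different sides of 0. This was the largest disagreement, 0.56, among the 11 members with more than 1 measured probe, of which 8 had probes within 0.25 of each other. *Col4a4* disagreed likewise, with 3 measured probes between -0.23 and 0.07. The first 30 bases of these probes are shown, 5′ to 3′, because the sign of the ratio depends on which of them is read. The *Col4a6* probes lie on the minus strand at chrX:137599990-137600049 (a) and chrX:137601433-137601491 (b), and the *Col4a4* probes on the minus strand at chr1:82447879-82447938 (a), chr1:82515563-82515622 (b) and chr1:82449133-82449192 (c), all on mm9. The (a) probe is the brightest of each gene and gave the values above.
Col4a6 a: ggcaaagcataacaagtacattctgagctc
Col4a6 b: cagtccctaatctcccctggctcgtgtctt
Col4a4 a: gtacccatgcaaacgcccacccacagacat
Col4a4 b: atttccaggagaagctggggttcctggaag
Col4a4 c: ttaagccaggcactttaaataattgtgaga

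Fibrillar collagens differed little between the genotypes. Of 11 on the array, 8 were measured, with mean ratios from -0.14 (*Col24a1*) to 0.17 (*Col5a3*) and a median of 0.03. With normexp all 8 had a mean above 0 and their median was 0.07, against 0.01 over all genes measured. *Col1a1* and *Col1a2*, which form collagen I, the main fibril of the interstitium, were higher in the knockout on both arrays by small amounts. Their ratios were 0.21 and 0.07 for *Col1a1* (signals of 741 against 641, and of 628 against 598) and 0.11 and 0.03 for *Col1a2* (5763 against 5338, and 4787 against 4694). *Col5a3*, a chain of collagen V, which regulates fibril diameter, was at 0.21 and 0.14. The other 5 measured fibrillar collagens, with *Col3a1* at 0.62 and -0.35, were higher on array 1 and lower on array 2. Of all 19708 genes measured, 12.1% were higher on both arrays, and 7637 genes were higher on array 1 and lower on array 2.

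Read from their brightest probes, the other measured collagens gave no mean ratio beyond 0.25 in size. A second probe of *Col23a1* gave -0.35 and -0.27 (mean -0.31), and one of *Col20a1* -0.33 and -0.18 (mean -0.25). The brightest probes of these genes had opposite signs on the arrays. Second measured probes of *Col14a1*, *Col16a1* and *Col18a1* had means of 0.05, -0.13 and -0.14, with opposite signs on the arrays. Among fibril-associated collagens, 5 of 9 were measured, from -0.24 for *Col9a2* (35.1 against 43.5, and 28.9 against 32.4) to 0.14 for *Col14a1*. *Col9a2* was lower on both arrays (-0.31 and -0.17), and the other 4 had opposite signs. Collagen VI, a microfilament of the interstitium, was measured through *Col6a1* and *Col6a2*, both lower on array 1 and higher on array 2. *Col8a1*, a short-chain collagen of vessels, was at 0.51 and -0.17. *Col15a1* and *Col18a1*, which link basement membranes to the interstitium, were at means of 0.03 and -0.04. *Col15a1* was the only measured member above background on just 1 array in the knockout. Over the 27 measured collagens, 4 were higher and 2 lower on both arrays, beside 12.1% and 15.6% of all genes measured. The median of their mean ratios was -0.02.

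MMPs were mostly dim. *Mmp13*, a collagenase, had the highest ratio of the measured MMPs on array 1, with signals of 96.8 in the knockout and 41.8 in the control, but 62.0 and 70.5 on array 2. Its log2 ratios of 1.21 and -0.18 gave a mean of 0.51 ± 0.99, smaller than the SD of the arrays. *Mmp14*, the membrane-bound protease that activates *Mmp2*, was at 20.7 against 47.7 on array 1 and at 46.1 against 22.8 on array 2. Its ratios of -1.21 and 1.02 had opposite signs on the arrays, and their mean was -0.09 ± 1.57. The brighter channel was that of Cy3 on both arrays. *Mmp2*, a gelatinase, was at -0.49 and 0.29, and *Mmp15* and *Mmp23* had the same signs. *Mmp11* was at 0.05 and -0.34. *Mmp17* was the only measured MMP with the same direction on both arrays, at 0.07 and 0.06.

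The 4 TIMPs had means below 0, from -0.25 for *Timp1* to -0.06 for *Timp3*, with a median of -0.19, against -0.0081 over all genes measured. With normexp their median was -0.06, and *Timp4* was at -0.0028. No share of all genes with a mean below 0 is given, so this count is no result about the TIMPs. Only *Timp1*, which is induced in injured kidney, had the same direction on both arrays, at -0.25 and -0.24 (15.6% of all genes were lower on both). Its signals were 51.3 in the knockout and 60.9 in the control on array 1 and 41.8 and 49.5 on array 2. *Timp2* was at -0.60 and 0.18 (mean -0.21 ± 0.55), and its second probe gave a mean of 0.09. *Timp3*, which is bound to the matrix, was at 0.10 and -0.22, and *Timp4* at 0.19 and -0.52. The sign of these 3 turned with the dyes.

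**Figure D3:**
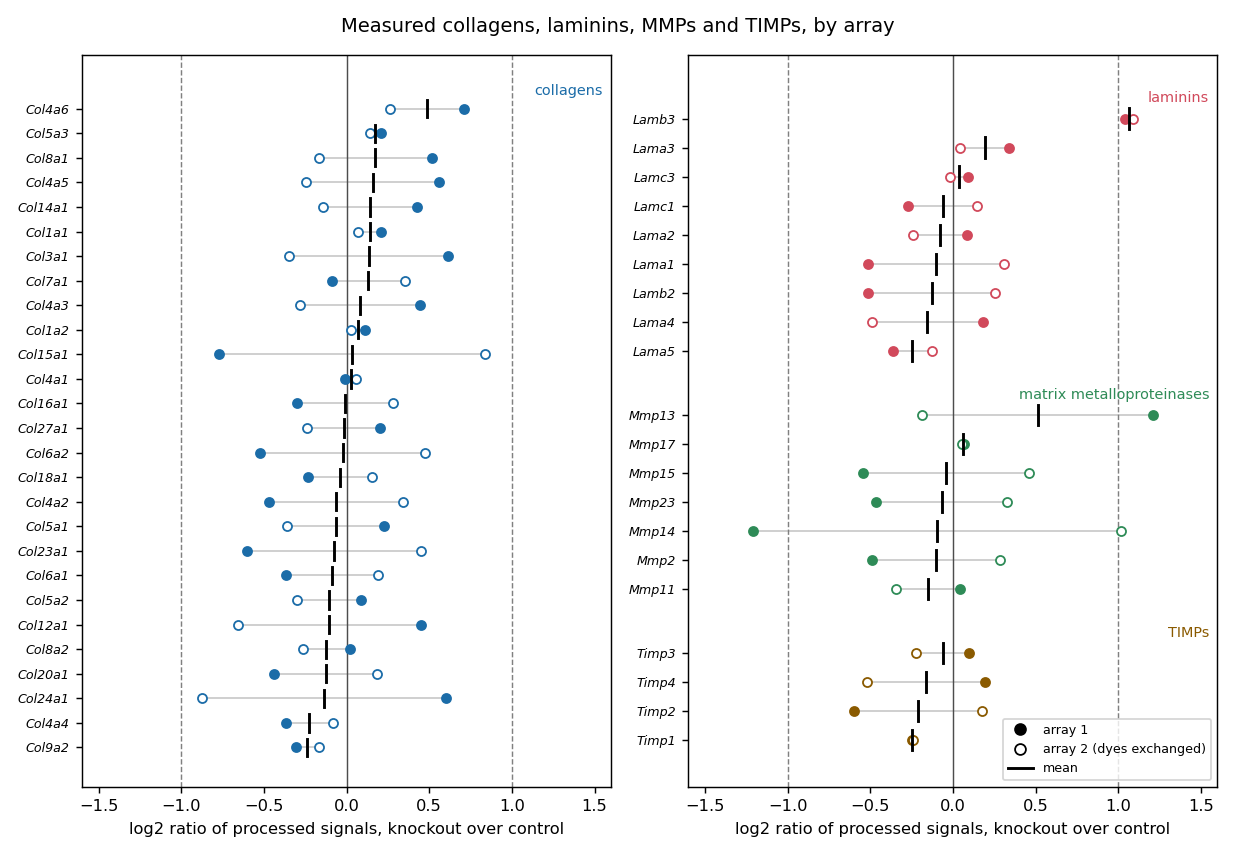
Log2 ratio of processed signals, knockout over control, of 47 of the 48 measured members on array 1 (filled) and array 2 (open), with the mean as a black bar and dashed lines at 2-fold. *Lamb3* has both points beyond the line at 1 and close together, *Mmp13* and *Mmp14* have points far apart, and the signs of 36 members shown differ between the arrays.

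Over all 48 measured members, 7 were higher on both arrays (*Col1a1*, *Col1a2*, *Col4a6*, *Col5a3*, *Lama3*, *Lamb3* and *Mmp17*), which is 14.6% against 12.1% of all genes measured. A further 5 were lower on both, among them *Col4a4*, *Col9a2*, *Lama5* and *Timp1*, which is 10.4% against 15.6%. These shares were near those of all genes and are no result about the members. The other 36 changed sign with the dyes, 18 in each way. Of all 19708 genes measured, 14250 did so, 7637 higher on array 1 and lower on array 2 and 6613 the reverse. This count is no result about the members either. For 10 members the mean ratio was larger in size than the SD of the arrays (20.8%, against 20.7% of all genes), and for *Lama3*, with the same sign on both arrays, it was not. The mean ratio was under 0.25 in size for 45 of 48 (93.8%, against 85.3% of all genes), with *Lamb3*, *Mmp13* and *Col4a6* as the exceptions.

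The ratio of a member on array 1 was inversely related to that on array 2. Across the 48 members, which share their RNA, arrays and dyes, Pearson's r was -0.48 and Spearman's rho -0.61, and across all genes measured r was -0.51 and rho -0.56. The spread across members of the mean ratio was 0.23 (SD), and that of the difference between arrays divided by 2 was 0.38. Each array had its own labelling, so a dye effect in that difference cannot be told apart from other differences between the arrays. For all genes these were 0.23 and 0.40.

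**Figure D4:**
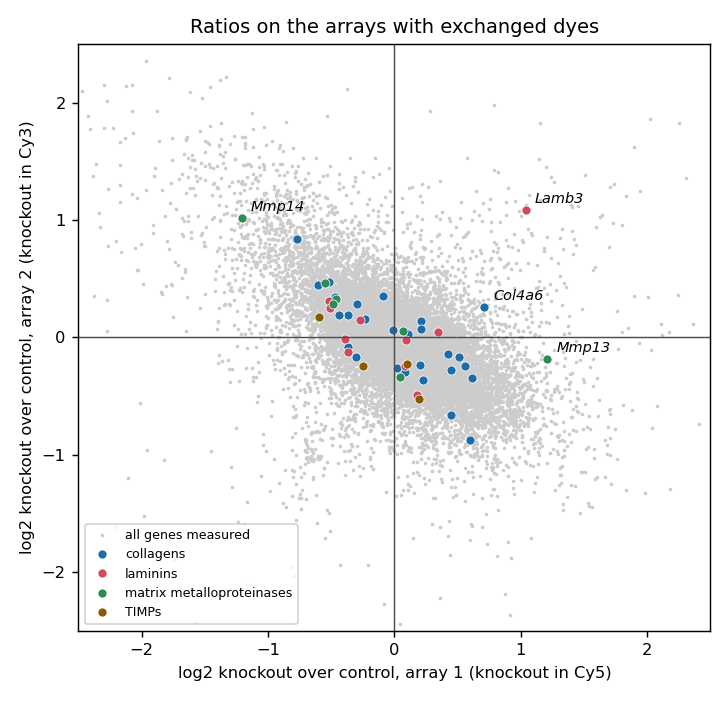
Log2 ratio of knockout over control on array 1 against that on array 2 for all genes measured (grey) and for the members by family (colours); 58 genes lie outside the axes, which end at 2.5. Most members follow the falling diagonal of the cloud, and *Lamb3*, at 1.04 and 1.09, lies in the upper right.

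Of the 29 members that were not measured, 16 were MMPs and 13 collagens. Collagenases *Mmp1a* and *Mmp8*, gelatinase *Mmp9*, matrilysin *Mmp7* and stromelysin *Mmp10* were not well above background in any channel. The same held for *Col17a1*, a hemidesmosome collagen, for the cartilage collagens *Col2a1*, *Col9a1*, *Col9a3*, *Col10a1* and *Col11a1*, and for *Col13a1*, *Col19a1*, *Col22a1*, *Col25a1*, *Col28a1*, *Col6a6*, *Mmp16*, *Mmp19*, *Mmp20*, *Mmp21*, *Mmp27* and *Mmp28*. Another 6 (*Col11a2*, *Mmp12*, *Mmp1b*, *Mmp24*, *Mmp25* and *Mmp3*) were above background in some channels only. *Mmp25*, a protease of leukocytes, had a signal of 99.9 in the control on array 1 and of 2.41 in the control on array 2. None of the 29 had another probe that was measured.

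Genes that make, bind or cut the matrix were described by the same rules. None of 12 other basement membrane genes, 22 measured genes of collagen synthesis and cross-linking, 18 of other interstitial matrix, 20 of integrins and other receptors and 12 of profibrotic signalling was past either limit on fold. Their medians were -0.16, -0.07, -0.09, -0.08 and -0.06. In the same order, 0, 2, 1, 2 and 1 genes were higher on both arrays and 4, 2, 6, 5 and 4 lower, beside 12.1% and 15.6% of all genes. Of 11 measured genes that activate or control proteases, 1 was past both limits: *Plau*, which encodes urokinase, a protease that activates plasminogen, was lower in the knockout, with log2 ratios of -2.58 and -1.13. Its signals were 359 against 2146 on array 1 and 77.5 against 169 on array 2, and the median of that list was 0.04. Of all genes measured, 0.284% were lower by the limit on the mean and 0.568% by the limit on each array. The lists of endothelium, fibroblast and pericyte, and smooth muscle markers, whose cells make much of the interstitial matrix, had medians of -0.08, -0.09 and -0.16.

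The ratio of *Lamb3* was positive under every alternative run, from 0.59 with normexp background correction and loess to 1.09 with centred background-subtracted signals. It reached 2-fold in 7 of 9 alternatives that used both arrays. The deposited ratios, the limits on dim probes, the marked spots and the median over probes returned its 1 probe at 1.06. These could not move the value and add no support. With normexp *Lamb3* was below both limits, and without background correction, at 0.88, it was below 2-fold. No other measured member reached 2-fold in the mean of both arrays under any of these alternatives.

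**Figure D5:**
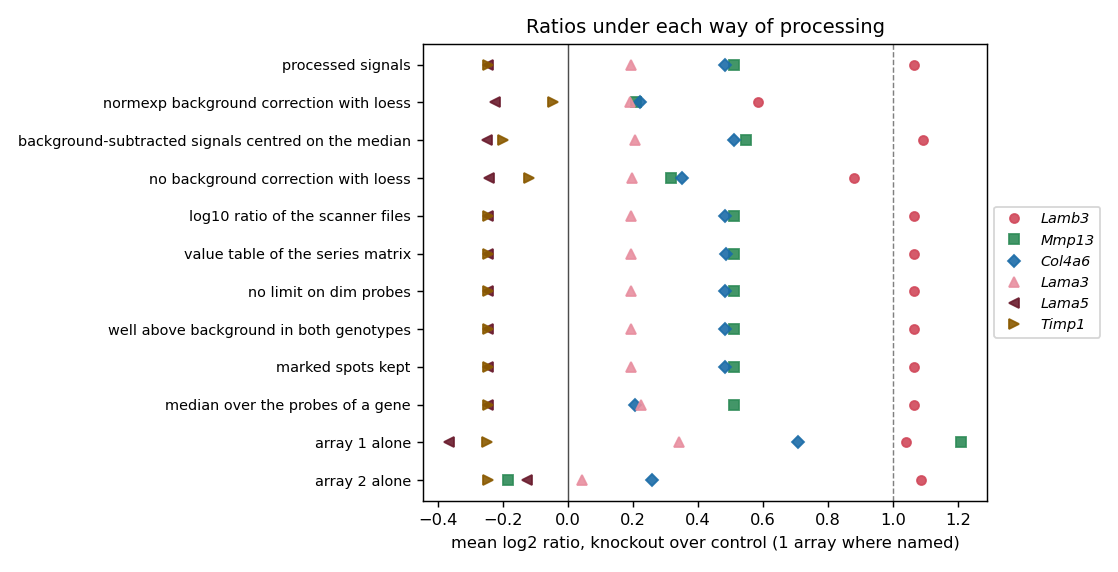
Mean log2 ratio, knockout over control, of 6 members (symbols) with processed signals and under each alternative, with a dashed line at 2-fold. *Lamb3* is the member farthest to the right wherever both arrays are used, between 0.59 and 1.09, and *Mmp13* moves from 1.21 on array 1 to -0.18 on array 2.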

How the data were processed

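Kidney RNA of Cnnm2fl/fl;Six2-Cre and Cnnm2+/+;Six2-Cre mice was measured on a 2-colour dye swap. Per the file headers, the authors deposited spot intensities from Agilent Feature Extraction 10.7.3.1 (the labels name 10.5.1.1) as means, less background, and as processed intensities with corrections for background, spatial trend and dye made within an array. Dim spots there carry a surrogate value. The deposited log10 ratio of the scanner files is red over green. The deposited value table of the series was log10 of knockout over control: after the sign of array 2 was turned, it lay within 0.00492 and 0.00483 of the scanner values, and its columns had medians of 0. Probe positions are on mm9.

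Processed signals were taken to log2 and turned to knockout over control by the dye labels. Spots of controls and those with a non-uniform or outlier mark were dropped, spots of a probe were averaged, and each gene name was read from its brightest probe (39416 probes, 105 of members). A gene was measured where a share of 0.5 or more of the spots of its probe was well above background on both arrays in at least 1 genotype. The limits on fold were 2 for the mean and 1.5 on each array. The methods' t-test was paired over the arrays, with p under 0.1 and a mean fold above 2, before and after Benjamini-Hochberg adjustment. The precision is limited by the number of arrays.

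Every member could be named. Those with the 10 highest and 10 lowest means, those past a limit, *Lama3*, the collagen IV chains and the TIMPs were described singly, and the others by range and count. The values of 1 measured member are not reported here, and it stays in the counts and medians. *Mmp14*, *Mmp17*, *Mmp25*, *Col1a2*, *Col15a1* and other members given with both arrays' values were picked after their values were seen. The members and lists were chosen with earlier results of these data known. The alternatives were 2 other background corrections with loess or centring, loess with no correction, both deposited sets of log10 ratios, other limits on dim probes, marked spots kept, the median over probes, and each array alone. The counting rules were tested on simulated data. The tools were R 4.3.3, limma 3.58.1, Python 3.11.15, pandas 2.3.3, numpy 2.4.6, matplotlib 3.10.9 and scipy 1.17.1.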

Additional observations from a re-analysis of the deposited data

How the results depend on the processing

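Of 9 alternatives with both arrays, the sign of *Lamb3* held in all, but its 2-fold limit depended on the background correction. Apart from those that changed the background correction, they returned the value of its 1 probe almost unchanged and add no support. Normexp with loess left 0 members at least 2-fold higher and 0 at least 1.5-fold higher on each array, with medians of 0.0323 for collagens, -0.0587 for TIMPs and -0.0079 for all measured members. No background correction with loess left 0 at 2-fold, with a median of -0.0235 over all measured members. Centred background-subtracted signals gave 4 members higher and 9 lower on both arrays and a median of -0.0502. With no limit on dim probes, 2 members (*Lamb3* and *Col19a1*, which was not well above background in any channel) were higher by either limit on fold, 17 were higher on both arrays, and the medians were 0.0577 for collagens and 0.0066 for all 77 members. On array 1 alone, 2 members were at least 2-fold higher (*Lamb3* and *Mmp13*) and 1 lower (*Mmp14*), 5 were at least 1.5-fold higher and 4 lower, and the medians were 0.0875 for collagens, -0.0745 for TIMPs and 0.0317 for all. On array 2 alone, 2 were at least 2-fold higher (*Lamb3* and *Mmp14*), 3 were 1.5-fold higher and 2 lower, and the medians were 0.0283 for collagens, 0.0167 for laminins and 0.0368 for all. The median of the 7 MMPs went from -0.07 to -0.46 on array 1 alone and 0.29 on array 2 alone, so its sign differed between the arrays. It is counted below as within the spread only because that spread, taken from these same arrays, is wide for the MMPs. No share of all genes is given beside the counts under these alternatives, so those counts are no result about the members. After Benjamini-Hochberg adjustment the methods' t-test, which takes the arrays as replicates, gave 0 members past its limits on p and fold. At an unadjusted p under 0.05 with no limit on fold it gave 3 of 48 members (*Lamb3*, *Mmp17* and *Timp1*, 6.25%, against 2.47% of all genes). At p under 0.1, the limit of the methods, it gave the same 3 members (6.25%), against 4.99% of all genes. These p may cover labelling and hybridization only. The causes were not tested. Another 102 recomputed values stayed within 1.5 times (counts) or within the spread of the 2 arrays (medians), which is wide for some families. Part of these come from alternatives that return nearly the same ratios, such as both deposited sets of log10 ratios and marked spots kept. Those add no support.

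*Timp1*, -0.25 with processed signals, was at -0.04 with normexp, and *Col9a2* went from -0.24 to -0.06. Among the members described singly, *Col24a1* (-0.14) and *Lama4* (-0.16) turned to 0.02 and 0.0013 with normexp. The ratios were paired within each array from the start, so a replicate block adds nothing.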

Other observations

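The difference between the arrays in a member's ratio went with the base composition of its probe, as it did over all genes. Across the 48 measured members, Spearman's rho between the GC percent of the probe and the difference between arrays divided by 2 was -0.43, and across all 19708 genes measured it was -0.21. The same GC percent gave a rho of -0.08 with the mean ratio of the members and -0.02 with that of all genes. Probes of the 18 members that were higher on array 1 and lower on array 2 had a median GC of 41.7%, and those of the 18 with the reverse signs 45%. Over all genes measured these medians were 40% (7637 genes) and 45% (6613 genes), so the difference is not particular to the members. Members are not independent points, since they share the RNA, the arrays and the dyes.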
